A study of Caenorhabditis elegans with 12 samples.

Results

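The genes of endoplasmic reticulum (ER)-associated degradation described here are sel-1, sel-11, cup-2, hrdl-1, cdc-48.1, cdc-48.2 and ufd-1. They were chosen by WormBase symbol, and all 7 were found among the 17430 genes listed for each library. All 7 also passed the filter on low values (10 or more on the normalized scale in 3 or more libraries), which 12908 genes passed. RNA was sequenced from whole adult wild-type N2 C. elegans that had been raised to the L4 stage on E. coli labelled as control RNAi or stt-3 RNAi, then kept for 12 h either on those same RNAi bacteria or on Pseudomonas aeruginosa PA14, a pathogen of the worm gut. stt-3 encodes the catalytic subunit of the oligosaccharyl transferase, which attaches N-glycans to proteins entering the ER. The 4 conditions (control RNAi on E. coli, control RNAi on PA14, stt-3 RNAi on E. coli and stt-3 RNAi on PA14) had 3 replicates each. Neither the labels nor the methods say whether replicates came from separate cultures, so the p values measure the spread between these libraries, which may be technical.

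Proteins that fail to fold in the ER are recognised in its lumen, passed through a membrane ubiquitin ligase complex, tagged with ubiquitin on the cytosolic face, pulled out by an ATPase and handed to the proteasome. In yeast and mammals the HRD1 ligase and its partner Hrd3 (SEL1L in mammals) form the core of this route, Derlins help to open the way through the membrane, and Cdc48 (p97) with its cofactor Ufd1 supplies the pulling force. The route removes many misfolded glycoproteins, and part of it is induced by the ER unfolded protein response.

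The values of the files are whole numbers and were treated as a score, not as read counts, because the study describes upper-quartile normalization followed by RUVSeq. The labels do not say whether the deposited column is that output. The depth behind them is unknown. Changes were tested with limma on log2(value + 1), so that fold changes are on that scale, which understates changes of low genes, and genes were called at a Benjamini and Hochberg (BH)-adjusted p under 0.05 over all 12908 genes. The upper quartile of the values lay between 161 and 164 in all 12 libraries. Replicate 3 of stt-3 RNAi on E. coli stood apart from its group on the first principal component (-38.2 against -74.1 and -89.8), and the calls and larger values that use it are also given without it. The value of stt-3 itself was not lower in the 6 stt-3 RNAi libraries (461 to 551) than in the 6 control RNAi libraries (367 to 434), so these are called libraries labelled stt-3 RNAi throughout. ostd-1, which encodes another subunit of the same transferase, fell by 2.35 on E. coli and fell by 2.86 on PA14 on the log2 scale in them (limma, BH-adjusted p = 1.4e-06 and 1.84e-07). Its locus lies within tom-1 on the other strand. Which gene the RNAi targeted cannot be told from these values. In whole worms, fewer cells of a type and less RNA per cell cannot be told apart.

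Among the degradation genes named at the start, 3 were called higher under labelled stt-3 RNAi on both bacteria. These were sel-1, sel-11 and cup-2, the ligase partner, the ligase and the Derlin of the membrane complex. They rose by 1.29-fold to 1.58-fold on E. coli and by 1.33-fold to 1.80-fold on PA14. Over all genes tested, 3.1% were called higher on E. coli and 4.72% on PA14. In a fit of only the E. coli libraries, these 3 genes lost their call (limma, BH-adjusted p from 0.0859 to 0.132). Of the further genes of this route described below, der-2 and ubql-1 were also called higher on both bacteria. The other membrane ligase, hrdl-1, and the genes of the extraction machinery, cdc-48.1, cdc-48.2 and ufd-1, passed the test for RNAi on neither bacterium. On PA14, cdc-48.1 fell in both RNAi groups.

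**Figure D1:**
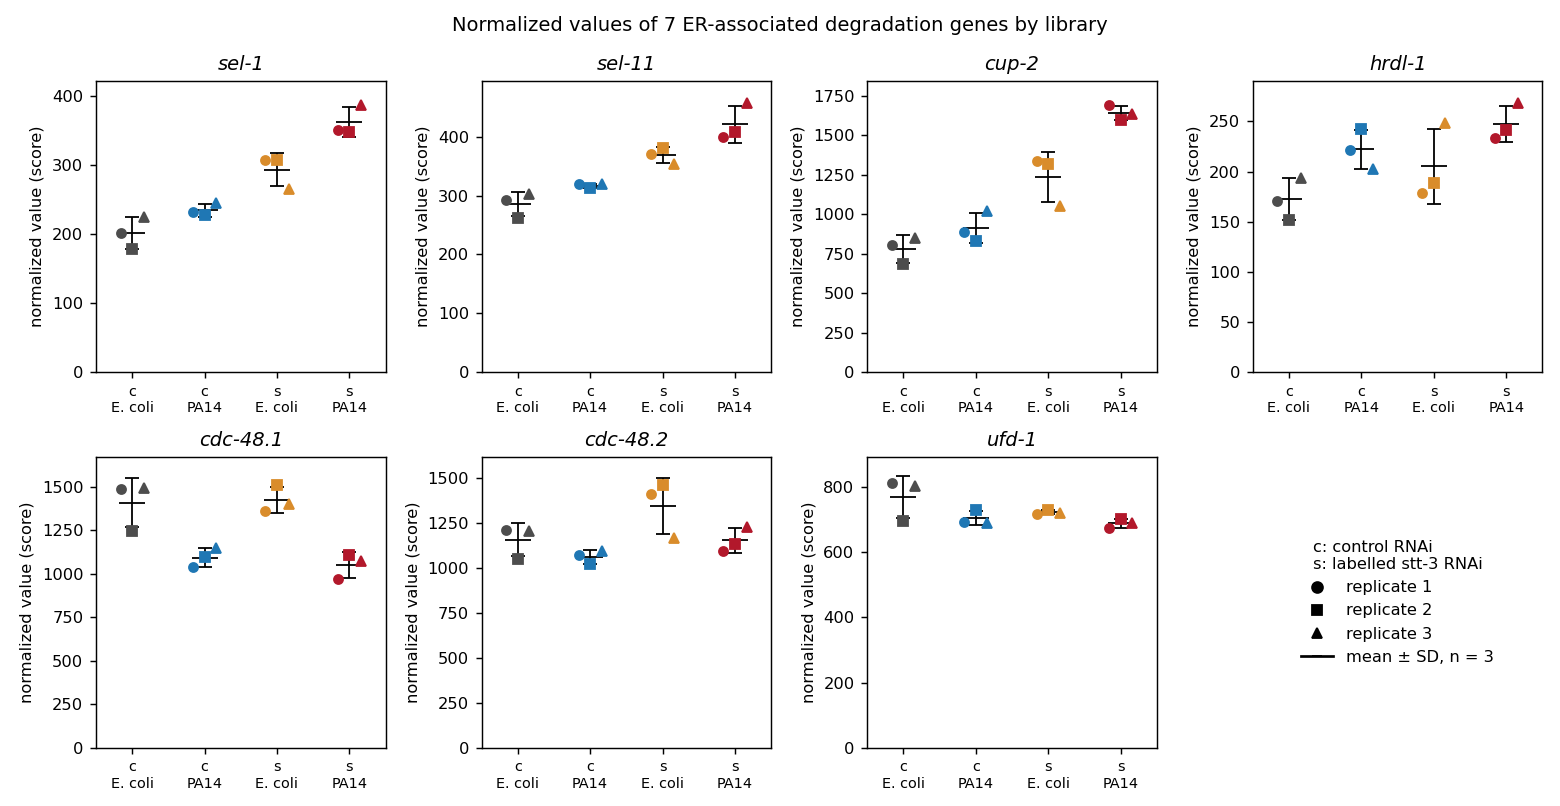
Normalized value (score, linear axis from 0) of each of the 7 genes in the 12 libraries, with 1 panel per gene and the 4 conditions on the x axis (c, control RNAi and s, labelled stt-3 RNAi). Points are replicates and bars are the mean ± SD (n = 3). sel-1 and sel-11 step up from control RNAi on E. coli to labelled stt-3 RNAi on PA14 with no overlap between conditions, cdc-48.1 is lower on PA14, and ufd-1 stays between 674 and 811. The share of all genes with such separate steps was not counted.

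sel-11 (WBGene00004768, chromosome V, 11767328 to 11769899 of WBcel235, plus strand) is the worm ortholog of the HRD1 ubiquitin ligase. Its normalized values were 292, 262 and 303 in control RNAi on E. coli and 370, 381 and 354 under labelled stt-3 RNAi on E. coli. On PA14 they were 319, 313 and 319 under control RNAi and 399, 408 and 457 under labelled stt-3 RNAi. Every labelled stt-3 RNAi library was above every control RNAi library, and the 3 control libraries on PA14 lay very close together, with a coefficient of variation of 1.09%. The RNAi change on the log2 scale was 0.37 ± 0.08 (SE, limma, BH-adjusted p = 0.0183) on E. coli and 0.41 ± 0.08 (SE, limma, BH-adjusted p = 0.00639) on PA14.

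sel-1 (WBGene00004759, chromosome V, 12560732 to 12563383, plus strand) encodes the ortholog of Hrd3 (SEL1L), the partner that stabilises the ligase and receives substrates in the lumen. On E. coli its values were 202, 178 and 225 under control RNAi and 307, 307 and 265 under labelled stt-3 RNAi. On PA14 they were 231, 227 and 245 under control RNAi and 350, 348 and 387 under labelled stt-3 RNAi. The RNAi groups were separate on both bacteria, and the lowest labelled stt-3 RNAi library (265) was the one that stood apart on the first principal component. The change was 0.54 ± 0.10 (SE, limma, BH-adjusted p = 0.00937) on E. coli and 0.62 ± 0.10 (SE, limma, BH-adjusted p = 0.00211) on PA14.

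cup-2 (WBGene00000843, chromosome I, 10398990 to 10400177, minus strand) encodes a Derlin, a rhomboid-like membrane protein, and was identified in worms through a defect in uptake by coelomocytes. Its values on E. coli were 804, 681 and 849 under control RNAi and 1336, 1318 and 1051 under labelled stt-3 RNAi. On PA14 they were 885, 831 and 1020 under control RNAi and 1688, 1597 and 1633 under labelled stt-3 RNAi. No labelled stt-3 RNAi library overlapped with control RNAi, and the labelled libraries on PA14 varied by only 2.80% (coefficient of variation). cup-2 had the largest RNAi change of the 7 genes on both bacteria, 0.66 ± 0.12 (SE, limma, BH-adjusted p = 0.00805) on E. coli and 0.85 ± 0.12 (SE, limma, BH-adjusted p = 0.000886) on PA14. The non-coding RNA F25D7.10 overlaps 67 bases of cup-2 on the other strand, and the library kit named in the labels does not mark strand, so their reads cannot be told apart there.

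hrdl-1 (WBGene00009164, chromosome I, 9793756 to 9796675, plus strand) encodes an HRD1-like ubiquitin ligase of the ER membrane. On E. coli its values were 171, 152 and 194 under control RNAi and 179, 189 and 248 under labelled stt-3 RNAi, and on PA14 they were 221, 242 and 203 against 233, 241 and 268. The RNAi groups overlapped on both bacteria. The RNAi change was 0.24 on E. coli, with a 95% interval from -0.05 to 0.54, and 0.16 on PA14, with an interval from -0.14 to 0.45 (limma, BH-adjusted p = 0.361 and 0.568). The value on E. coli rests on replicate 3 of labelled stt-3 RNAi (248), without which it was 0.10 (95% interval -0.16 to 0.36, BH-adjusted p = 0.771).

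The ATPase that extracts substrates is encoded by a pair of closely similar genes, cdc-48.1 (WBGene00007352, chromosome II, 10560036 to 10563407, minus strand) and cdc-48.2 (WBGene00008053, chromosome II, 8138496 to 8141230, plus strand). How reads that match both copies were divided is not stated, so the split between them is uncertain. cdc-48.1 had values of 1486, 1246 and 1495 under control RNAi and 1364, 1512 and 1400 under labelled stt-3 RNAi on E. coli. On PA14 it had 1039, 1096 and 1148 under control RNAi and 969, 1110 and 1074 under labelled stt-3 RNAi. The RNAi groups overlapped on either bacterium, while all 6 libraries on PA14 lay below all 6 on E. coli. The RNAi change was 0.02 on E. coli (95% interval -0.18 to 0.22) and -0.06 on PA14 (95% interval -0.26 to 0.14), with limma BH-adjusted p = 0.941 and 0.768. Of the 2 small nucleolar RNAs within the cdc-48.1 locus, C06A1.8 and C06A1.9, neither touches an exon.

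cdc-48.2 had values of 1215, 1053 and 1208 under control RNAi and 1411, 1462 and 1166 under labelled stt-3 RNAi on E. coli. On PA14 the values were 1073, 1022 and 1098 under control RNAi and 1096, 1137 and 1229 under labelled stt-3 RNAi. The groups overlapped on both bacteria. On E. coli the RNAi change was 0.21 (95% interval 0.00109 to 0.42, limma, BH-adjusted p = 0.241), and without replicate 3 of labelled stt-3 RNAi on E. coli it was 0.31 (BH-adjusted p = 0.067). On PA14 it was 0.12 (95% interval -0.10 to 0.33, BH-adjusted p = 0.548). The last 22 bases of cdc-48.2 overlap with ints-11 on the other strand.

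ufd-1 (WBGene00006733, chromosome IV, 12329408 to 12330890, minus strand) encodes the cofactor that, with NPL4, binds ubiquitinated substrates for CDC-48. Its values varied least of the 7 genes over the 12 libraries (root mean square deviation from its own mean of 0.081 on the log2 scale). Its values on E. coli were 811, 695 and 802 under control RNAi and 718, 730 and 721 under labelled stt-3 RNAi, and on PA14 they were 693, 729 and 690 against 674, 701 and 690. The groups overlapped, and the RNAi change was -0.09 on E. coli (95% interval -0.24 to 0.06) and -0.03 on PA14 (95% interval -0.18 to 0.12), with limma BH-adjusted p = 0.564 and 0.844. These intervals lie below the changes of sel-1, sel-11 and cup-2 on the same bacterium.

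In the RNAi comparison on E. coli, 3 of the 7 genes were thus called higher and 0 lower, where 3.1% of all genes tested were called higher and 3.32% lower. The median change of the 7 genes was 0.24, against 0.02 over all genes tested. None of the 7 changed by more than 2-fold, which 1.98% of all genes tested did upward and 1.23% downward. In 3 of the 7 the labelled libraries lay wholly above control RNAi, as in 8.99% of all genes, and in 0 wholly below (12.9%). By limma, at an unadjusted p under 0.05, 4 were higher (cdc-48.2 in addition) and 0 lower. The share of all genes at an unadjusted p under 0.05 was not computed in any comparison. Nothing is therefore read from the unadjusted counts, here or below. When replicate 3 of labelled stt-3 RNAi on E. coli was left out, the changes of sel-1, sel-11 and cup-2 were 0.61, 0.40 and 0.78 and all were called. In a fit of only the 6 libraries on E. coli, however, the same changes had BH-adjusted p of 0.108, 0.132 and 0.0859, and 0 of the 7 were called, where 0.759% of all genes were called higher and 0.473% lower. sel-11 also lost its call when replicate 1 of control RNAi on E. coli (BH-adjusted p = 0.0521) or replicate 1 or 2 of labelled stt-3 RNAi on E. coli (BH-adjusted p = 0.0624 and 0.0504) was left out.

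On PA14, which shares no libraries with the E. coli comparison, the same 3 genes were called higher and 0 lower, where 4.72% of all genes tested were higher and 5.76% lower. None passed 2-fold (1.97% of all genes upward and 3.34% downward). The labelled libraries lay wholly above control RNAi in 3 of the 7 (16.7% of all genes) and wholly below in 0 (14%). At an unadjusted p under 0.05 the counts were also 3 and 0. The median of the 7 genes was 0.16 and that of all genes tested was 0.05. All 3 kept their call in each of the 21 other settings tried, with BH-adjusted p from 0.00115 to 0.0125 for sel-1, from 0.00347 to 0.0304 for sel-11 and from 0.000154 to 0.00571 for cup-2. The calls thus varied with the fit on E. coli and not on PA14.

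**Figure D2:**
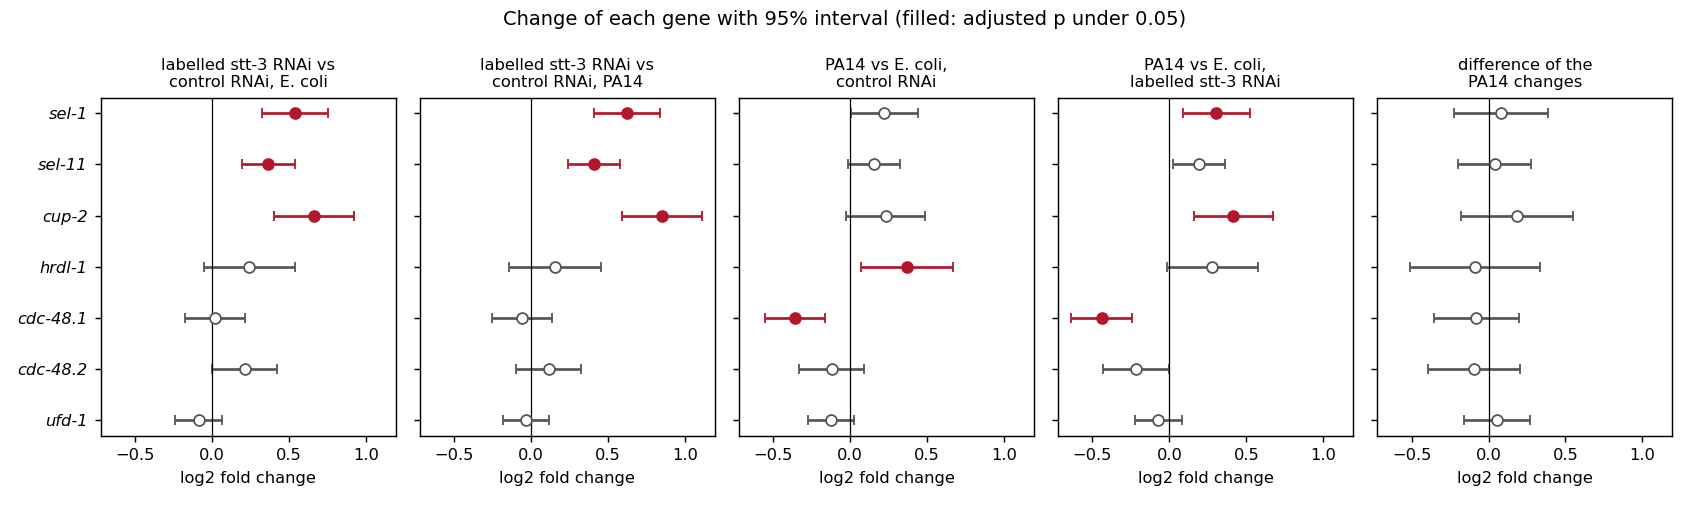
Log2 fold change of the 7 genes with its 95% interval from limma in the 5 comparisons, filled where the BH-adjusted p was under 0.05. The RNAi changes of sel-1, sel-11 and cup-2 lie between 0.37 and 0.85, those of cdc-48.1 and ufd-1 lie near 0, and cdc-48.1 lies below 0 in both PA14 comparisons.

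PA14 was then compared with E. coli within each RNAi group. These comparisons use the same E. coli and PA14 libraries as the RNAi comparisons. In control RNAi, hrdl-1 rose by 1.29-fold and cdc-48.1 fell by 0.36 on the log2 scale, so that 1 gene was called higher and 1 lower, where 25.8% of all genes tested were called higher and 25.8% lower. hrdl-1 (0.37 ± 0.13, SE, limma, BH-adjusted p = 0.0409) had all 3 libraries on PA14 above all 3 on E. coli. This call was lost in 7 of the 21 other settings, among them the fits that left out replicate 1 or 2 of control RNAi, E. coli (BH-adjusted p = 0.0855 and 0.135) or of control RNAi on PA14 (0.0825 and 0.133). The libraries on PA14 lay wholly above those on E. coli in 3 of the 7 genes (sel-1, sel-11 and hrdl-1, 30.5% of all genes) and wholly below in 1 (cdc-48.1, 28.9%). sel-1, sel-11 and cup-2 had changes of 0.22, 0.15 and 0.23 with limma BH-adjusted p of 0.0807, 0.12 and 0.122, and none of the 3 passed the test. With replicate 3 of control RNAi, E. coli, left out, sel-1 was also called higher (0.30, BH-adjusted p = 0.0285).

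In the labelled stt-3 RNAi libraries, 2 of the 7 genes were called higher on PA14 and 1 lower, where 23.1% of all genes tested were higher and 20.6% lower. The libraries on PA14 lay wholly above those on E. coli in 3 of the 7 (29.2% of all genes) and wholly below in 2 (23%). Nothing about the 7 genes is read from these counts. cup-2 rose by 0.42 ± 0.12 on the log2 scale (SE, limma, BH-adjusted p = 0.0141; without the replicate that stood apart 0.30, BH-adjusted p = 0.0406) and sel-1 by 0.30 ± 0.10 (SE, limma, BH-adjusted p = 0.0273). The call of sel-1 was lost without replicate 3 of labelled stt-3 RNAi on E. coli (0.23, BH-adjusted p = 0.0822) or replicate 3 of labelled stt-3 RNAi on PA14 (0.25, BH-adjusted p = 0.102). sel-11 (0.19) and hrdl-1 (0.28) had BH-adjusted p of 0.0651 and 0.118. Without the replicate that stood apart, hrdl-1 was called higher (0.42, BH-adjusted p = 0.0142) and cdc-48.2 lower (-0.32, BH-adjusted p = 0.0105).

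cdc-48.1 was lower on PA14 by 0.36 ± 0.09 under control RNAi and by 0.44 ± 0.09 under labelled stt-3 RNAi (log2 scale, SE, limma, BH-adjusted p = 0.00589 and 0.00237). The values for cdc-48.2 were -0.12 and -0.22, with BH-adjusted p of 0.319 and 0.0899, and those for ufd-1 were -0.12 and -0.07, with BH-adjusted p of 0.15 and 0.434. The fall of cdc-48.1 held when any library was left out, and its call was lost only after quantile normalization, in which its changes were -0.15 and -0.27 (BH-adjusted p = 0.359 and 0.111). Some markers of other tissues also changed with the bacteria in the same libraries. Over all genes tested, 25.8% were called higher and 25.8% lower on PA14 in control RNAi. Under labelled stt-3 RNAi, 23.1% were higher and 20.6% lower. Counts near these shares are not read as a change of a tissue. All 30 genes of the major sperm protein family fell on PA14 in both RNAi groups, with a summed value of 68281 to 168502 in control RNAi on E. coli and 4700 to 11244 in control RNAi on PA14 (76864 to 133292 and 7396 to 11292 under labelled stt-3 RNAi). How reads that match several members of this family were divided is not stated, so the 30 are not separate results. Of 7 germline genes, 3 fell under control RNAi and 4 under labelled stt-3 RNAi, and their sum was 4787 to 5703 against 3785 to 4022 under control RNAi and 4475 to 4999 against 3278 to 3953 under labelled stt-3 RNAi. Of 3 muscle genes tested, 3 fell in control RNAi and 2 under labelled stt-3 RNAi, and of 3 neuron genes 2 rose in either. Of 11 oocyte genes 3 and 2 rose, beside a background of 25.8% and 23.1%. Of 5 epidermis genes, 1 rose and 2 fell in control RNAi, and 1 rose and 1 fell under labelled stt-3 RNAi. No listed marker of these lists was at 0 throughout a condition. The part of these tissues in the change of cdc-48.1 was not tested.

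The sum of 7 intestine marker genes was 4186 to 6483 under control RNAi and 2075 to 4790 under labelled stt-3 RNAi on E. coli, and 4564 to 7952 against 2211 to 2976 on PA14. Most of this sum is act-5 (3823, 5338 and 3351 against 3883, 2727 and 1231 on E. coli), which encodes an intestinal actin, while ges-1, a gut esterase, rose on E. coli (88, 86 and 93 against 146, 137 and 191). In the RNAi comparison 1 of the 7 (ges-1) rose on E. coli and 1 (ifb-2) fell on PA14, and in the PA14 comparison 3 rose in control RNAi and 1 fell under labelled stt-3 RNAi. Of the other lists, the germline gene glh-1 fell (BH-adjusted p = 0.0372) and the neuron gene snb-1 rose (0.0336) with RNAi on E. coli, and the oocyte gene perm-4 rose on PA14 (0.0114). Of the coelomocyte list only cup-4 was tested, and it passed neither RNAi test. Its RNAi changes were 0.05 on E. coli and 0.66 on PA14 (limma, BH-adjusted p = 0.94 and 0.0727). None of these genes was at 0 throughout a condition, and their part in the changes of sel-1, sel-11, cup-2 and hrdl-1 was not tested.

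The PA14 changes of the 7 genes were also compared between RNAi groups through the interaction term. None of the 7 passed, with limma BH-adjusted p from 0.771 to 0.945 and 0 genes at an unadjusted p under 0.05, where 0.418% of all genes tested had a higher and 1.24% a lower PA14 change under labelled stt-3 RNAi. The estimate for cup-2 was 0.19, with a 95% interval from -0.18 to 0.55, and that for sel-1 was 0.08, with an interval from -0.22 to 0.39. With 1 library left out these estimates ranged from 0.0745 to 0.28 and from 0.00127 to 0.17, and without the replicate that stood apart they were 0.0745 and 0.0126. A call of cup-2 and sel-1 under labelled stt-3 RNAi alone is therefore not shown to be a difference between the RNAi groups.

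The levels of sel-1 and sel-11 had the same order of conditions, with control RNAi on E. coli lowest, then control RNAi on PA14, labelled stt-3 RNAi on E. coli and labelled stt-3 RNAi on PA14. The means of sel-1 were 202, 234, 293 and 362, and those of sel-11 were 286, 317, 368 and 421. Neighbouring conditions in this order had no library in common range for either gene. The share of all genes with such separate steps was not counted, so nothing about these genes is read from it. The PA14 step of sel-11 passed the test in neither RNAi group, and that of sel-1 did not pass in control RNAi. cup-2 had the same order, with means of 778, 912, 1235 and 1639, and only its 2 control RNAi conditions overlapped. In hrdl-1, cdc-48.2 and ufd-1 all neighbouring conditions overlapped. Levels per kilobase assume that the score grows with exon length, which is not stated, so ranks between genes are uncertain. Per kilobase of annotated exon, cup-2 had the highest level of the 7 genes in each condition (860 in control RNAi on E. coli to 1811 under labelled stt-3 RNAi on PA14), and sel-1 and hrdl-1 had the lowest (84.6 to 151.7 and 78.8 to 113). The level of ufd-1 per kilobase was 567 to 633 and that of sel-11 was 137 to 202.

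Ratios between genes within a library do not depend on a scaling factor of that library, although RUVSeq adjusts each gene separately. The 4 membrane genes (sel-1, sel-11, cup-2 and hrdl-1) were set against the 3 extraction genes (cdc-48.1, cdc-48.2 and ufd-1) as the ratio of their geometric means, a description with no test. This ratio was 0.275 ± 0.012 (SD, n = 3) in control RNAi on E. coli, 0.375 ± 0.0039 in control RNAi on PA14, 0.364 ± 0.011 under labelled stt-3 RNAi on E. coli and 0.530 ± 0.023 under labelled stt-3 RNAi on PA14. The middle conditions overlapped, the lowest and the highest were separate from them, and the replicate of labelled stt-3 RNAi on E. coli that stood apart had 0.375, against 0.365 and 0.353 in the other replicates of its group. Within the ligase complex, the ratio of sel-1 to sel-11 was 0.706 ± 0.033 and 0.740 ± 0.025 in control RNAi on E. coli and PA14, and 0.795 ± 0.042 and 0.859 ± 0.016 under labelled stt-3 RNAi. The ratio of cdc-48.1 to cdc-48.2 was 1.21 ± 0.028 in control RNAi on E. coli, 1.03 ± 0.054 in control RNAi on PA14, 1.07 ± 0.12 under labelled stt-3 RNAi on E. coli and 0.911 ± 0.056 under labelled stt-3 RNAi on PA14. It was above 1 in all 3 libraries of the first condition and below 1 in all 3 of the last. The replicate of labelled stt-3 RNAi on E. coli that stood apart had a ratio of 1.20, against 0.967 and 1.03 in the rest of its group.

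**Figure D3:**
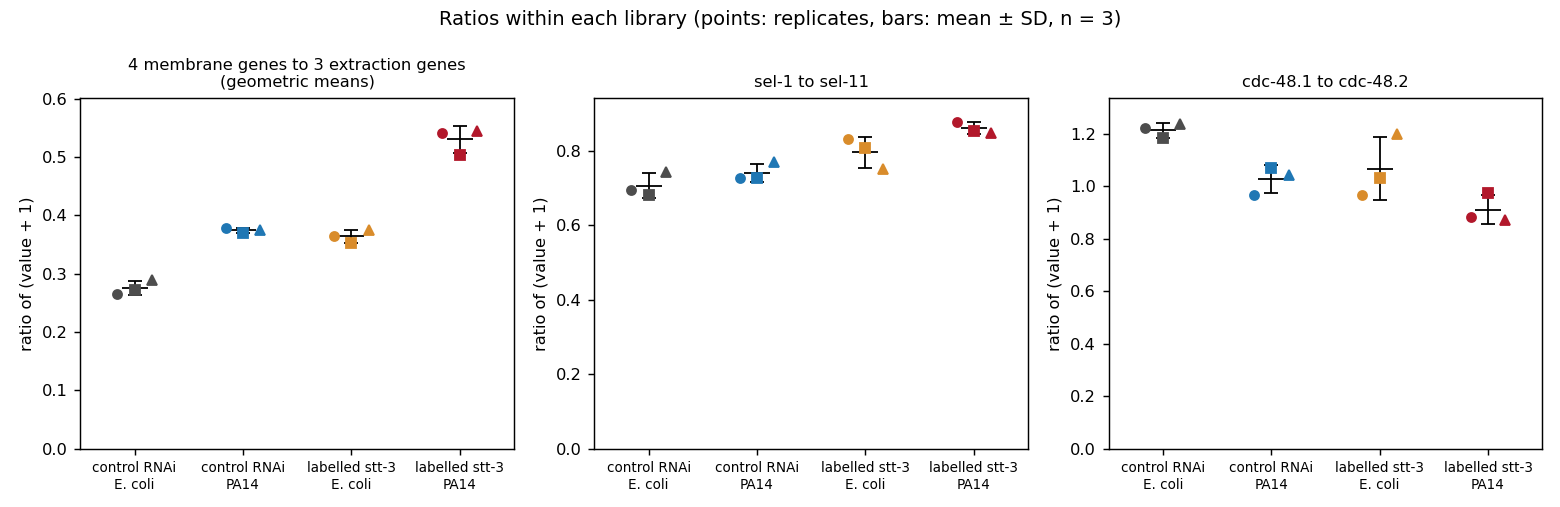
Ratio of normalized values (value + 1) within each library, for the 4 membrane genes to the 3 extraction genes, for sel-1 to sel-11 and for cdc-48.1 to cdc-48.2, in the 4 conditions (linear axes from 0). Points are replicates and bars are the mean ± SD (n = 3), and the first ratio goes from 0.275 in control RNAi on E. coli to 0.530 under labelled stt-3 RNAi on PA14. The last ratio depends on how reads that match both copies were divided, which is not stated.

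A further list of 20 genes of the same route was examined, of which 17 were matched by symbol and tested. On E. coli, 3.1% of all genes tested were called higher with RNAi and 3.32% lower. Of the 17, 2 rose and 0 fell (3 and 0 at an unadjusted p under 0.05). They were der-2, which encodes a second Derlin (0.33 ± 0.09, SE, limma, BH-adjusted p = 0.0491), and ubql-1, which encodes ubiquilin, a shuttle to the proteasome (0.31 ± 0.07, SE, limma, BH-adjusted p = 0.0268). Without the replicate that stood apart these were 0.41 and 0.37 (BH-adjusted p = 0.016 and 0.0144). With RNAi on PA14, 4.72% of all genes tested were called higher and 5.76% lower. On PA14, 3 rose and 0 fell (also 3 and 0 unadjusted), namely der-2 (0.53, BH-adjusted p = 0.0027), ubql-1 (0.47, BH-adjusted p = 0.00176) and ubxn-4 (0.36, BH-adjusted p = 0.0212), the ortholog of a mammalian protein that brings p97 to the ER membrane. der-2 had values of 303, 291 and 285 under control RNAi and 390, 389 and 327 under labelled stt-3 RNAi on E. coli, and 308, 301 and 291 against 466, 398 and 436 on PA14. Like cup-2, its groups were separate on both bacteria. Labelled libraries lay wholly above control RNAi in 8.99% of all genes on E. coli and in 16.7% on PA14. The medians of the 17 genes were 0.03 on E. coli and 0.06 on PA14, close to those of all genes tested. Among those of the list that passed neither RNAi test was marc-6, the ortholog of the ER ligase Doa10, with changes of 0.10 and 0.22. Another was ubc-7, which encodes a ubiquitin-conjugating enzyme, with 0.00321 and 0.12. npl-4.1 and npl-4.2, which encode the partner of UFD-1, are near-identical copies and their values are uncertain.

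With PA14, png-1, the cytosolic glycanase that strips N-glycans from extracted proteins, rose in control RNAi (0.33, limma, BH-adjusted p = 0.00922) and under labelled stt-3 RNAi (0.27, BH-adjusted p = 0.0261). der-2 rose under labelled stt-3 RNAi (0.23, BH-adjusted p = 0.0467), a call lost without the replicate that stood apart (0.15, BH-adjusted p = 0.143), and ubc-7 fell by 0.22 in control RNAi (BH-adjusted p = 0.0445). The counts were therefore 1 of 17 higher and 1 lower in control RNAi, and 2 higher and 0 lower under labelled stt-3 RNAi (5 and 0 at an unadjusted p under 0.05 in the latter). Over all genes tested 25.8% were called in each direction in control RNAi, and 23.1% higher and 20.6% lower under labelled stt-3 RNAi. png-1 overlaps with aat-9 on the other strand.

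The steps before and after this route gave other values. Of 13 genes of ER chaperones and folding enzymes, 11 rose with RNAi on E. coli and 10 on PA14. Over all genes tested, 3.1% and 4.72% were called higher. In either comparison 0 of the 13 were lower (also 0 at an unadjusted p under 0.05). By more than 2-fold, 9 rose on each (8 of them shared), as did 1.98% and 1.97% of all genes tested. The medians of the 13 genes were 1.38 and 1.63. hsp-4, the ER Hsp70 chaperone BiP, had values of 1231, 1147 and 1357 under control RNAi and 7193, 6528 and 3507 under labelled stt-3 RNAi on E. coli, and 1362, 1216 and 1743 against 8158, 8413 and 9999 on PA14. The replicate with 3507 was again the one that was lowest in sel-1, sel-11 and cup-2. Without it, 11 of the 13 folding genes rose with RNAi on E. coli, with a median of 1.63, where 2.82% of all genes tested were called higher. Of 33 proteasome subunits, 0 rose and 0 fell with RNAi on E. coli (0 and 10 at an unadjusted p under 0.05), and 0 rose and 1 fell on PA14 (0 and 5), with medians of -0.12 and -0.09. Over all genes tested, 3.32% were called lower with RNAi on E. coli and 5.76% on PA14. The unadjusted counts have no share over all genes beside them. On PA14 against E. coli, 13 of the 33 fell under control RNAi and 8 under labelled stt-3 RNAi, where 25.8% and 20.6% of all genes tested were lower.

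**Figure D4:**
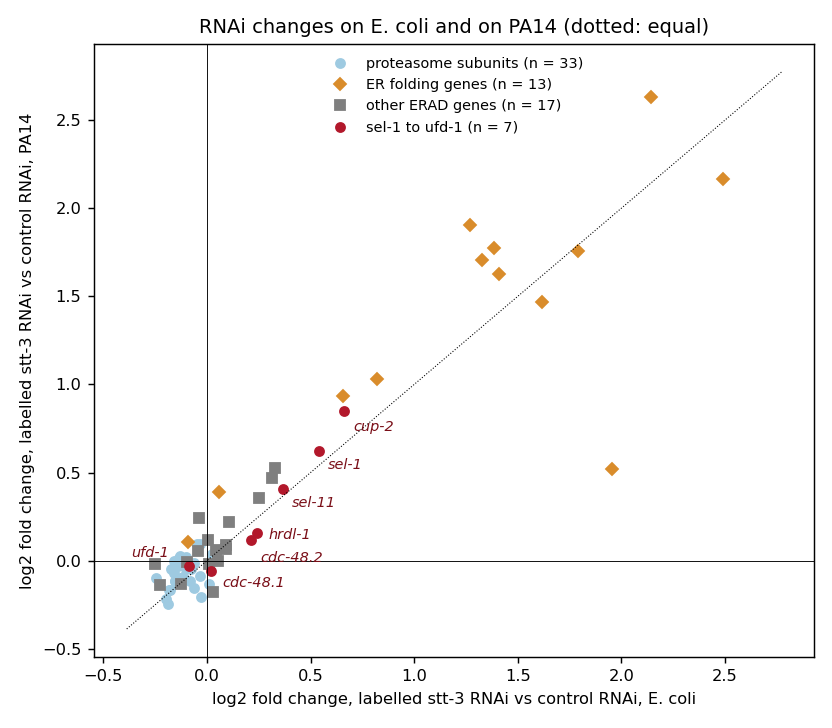
Log2 fold change between labelled stt-3 RNAi and control RNAi on E. coli (x axis) and on PA14 (y axis), each point being a gene, for the 7 named degradation genes, 17 other degradation genes, 13 ER folding genes and 33 proteasome subunits. The dotted line marks equal changes. sel-1, sel-11 and cup-2 lie between the proteasome subunits near 0 and most of the folding genes, whose medians are 1.38 and 1.63.

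The patterns of the 7 genes over the 12 libraries were compared by the root mean square difference of log2(value + 1), each gene centred on its own mean. This is a description, and all genes share the same libraries. The difference is not scaled to a gene's own variation, so genes that vary little lie close whatever their pattern. Among the 7, sel-1 was closest to cup-2 (0.116) and sel-11 (0.118), and the extraction genes were closest to each other, with 0.150 between cdc-48.2 and ufd-1, 0.165 between cdc-48.1 and ufd-1 and 0.169 between cdc-48.1 and cdc-48.2. The root mean square deviation of each extraction gene from its own mean was 0.0806 for ufd-1, 0.153 for cdc-48.2 and 0.219 for cdc-48.1. No shared pattern of the extraction genes is read from their closeness. cup-2 and cdc-48.1 were farthest apart (0.546). Over all genes tested, the 3 most like sel-1 were Y47D9A.1 (0.068), T16G1.9 (0.108) and ZK1307.8 (0.109), and those most like cup-2 were uggt-1 (0.106), Y47D9A.1 (0.107) and nhx-5 (0.111). uggt-1 encodes the glucosyltransferase that tests the folding of glycoproteins in the ER. sel-11 was most like tag-353 (0.054), ubxn-4 (0.056) and sly-1 (0.063), a factor in transport between ER and Golgi. hrdl-1 was closest to aakg-5, gon-4 and ubc-25 (0.058 to 0.067), cdc-48.1 to cra-1, F44E7.4 and Y48G1C.8 (0.069 to 0.071), cdc-48.2 to cua-1, acs-4 and chc-1 (0.063 to 0.076) and ufd-1 to B0261.7, pid-3 and hpl-2 (0.022 to 0.041).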

How the data were processed

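The deposited values were treated as a score per gene. Per the methods, the authors aligned reads to WBcel235 with HISAT2 2.0.5, quantified genes with StringTie 1.3.3b and Ballgown, and applied upper-quartile normalization and RUVSeq against batch effects. That the deposited whole numbers are that output is inferred from the methods and the near-equal upper quartiles, and is not stated. Although the column is headed as a count, no count test was used. The control genes of RUVSeq, the strand setting, and the annotation release are not given in the sources used here, nor is the depth, so no counting interval was computed. No per-sample column was left unused (0).

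The WBcel235 annotation gave symbols, coordinates and overlaps. Genes reaching 10 in 3 or more libraries were fitted with limma 3.58.1 (R 4.3.3) on log2(value + 1), with 1 mean per condition over all 12 libraries, a mean-variance trend and BH adjustment over 12908 genes. Figures were drawn with matplotlib 3.10.9. The fit was also run on simulated data with 200 changed genes, a check of the code that says nothing about the results here. All 7 genes were named. Of the 20 further degradation genes, up to 3 per direction and comparison with the largest change past the threshold were named, and for each of the 7 genes the 3 tested genes of most similar pattern. marc-6, ubc-7 in the RNAi comparisons, the npl-4 genes and single marker genes were named outside this rule, after their values were seen. The 7 genes and all lists were chosen with earlier results of these data known.

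Libraries of equal replicate number were examined for pairing by correlating their deviations from the condition means across genes. On PA14 the correlations between RNAi groups were 0.53, 0.26 and 0.39 for equal numbers. Replicate 3 of control RNAi and replicate 2 of labelled stt-3 RNAi on PA14 had 0.21, and other unequal pairs there were negative. On E. coli (0.019, 0.37 and 0.46) and between bacteria not every pair of equal number was above 0.1. Deviations from a condition mean sum to 0, so these correlations are not independent. Whether equal numbers mark paired libraries is not settled by them. The alternatives were other pseudocounts, filters and scalings, no trend, each library left out in turn, a replicate block, and fits of only the groups compared. Sequences and promoter motifs were not analysed here.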

Additional observations from a re-analysis of the deposited data

How the results depend on the processing

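The calls of sel-1, sel-11 and cup-2 for RNAi on PA14 held in all 21 other settings. When only the groups compared were fitted, 0 of the 7 genes were called higher for RNAi on E. coli, where calls over all genes went from 3.1% to 0.759% higher, and the cause was not tested. After median-of-ratios scaling 1 was called higher and 2 lower for PA14 in labelled stt-3 RNAi, where cdc-48.2 gained and sel-1 lost its call (18.8% of all genes higher and 23.2% lower). After quantile normalization 2 were higher (cup-2 and hrdl-1) and 0 lower for PA14 in control RNAi, and 0 were lower for PA14 in labelled stt-3 RNAi. This scaling moved the median of all genes from 0.04 to 0.13 and from 0.07 to 0.14. With it, 29.3% and 27.7% of all genes were called higher, and 21.6% and 18.3% lower. Without the mean-variance trend 0 were higher for PA14 in control RNAi, since hrdl-1 had a BH-adjusted p of 0.0545. With each library left out in turn, the number called higher was 2 to 3 for RNAi on E. coli, 0 to 2 for PA14 in control RNAi (1 to 2 lower) and 1 to 3 for PA14 in labelled stt-3 RNAi (1 to 2 lower). With replicate 2 of control RNAi (E. coli) left out, ufd-1 was the second gene called lower in control RNAi.

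Changes of sign were confined, in the settings run, to values that passed no test. They were the interaction of sel-11 (-0.0175) and ufd-1 (-0.00296) under median-of-ratios scaling, ufd-1 for RNAi on PA14 (0.0134) and cdc-48.2 for PA14 in control RNAi (0.10) after quantile normalization and, with a library left out, cdc-48.1 for RNAi on E. coli (-0.0658 to 0.0655) and the interactions of cdc-48.1 (-0.12 to 0.00641), hrdl-1 (-0.18 to 0.0558) and sel-11 (-0.0205 to 0.10).

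Adding a block for the replicate number changed no call of the 7 genes in any of the 5 comparisons. With this block the BH-adjusted p for RNAi on PA14 was 0.00474 for sel-1, 0.0129 for sel-11 and 0.00213 for cup-2. The depth of the libraries is not known, and all changes of the 7 genes lie under 2-fold.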
